A study of Mus musculus with 2 samples.

Results

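Hox genes encode homeodomain transcription factors that sit in 4 clusters, A to D, and each cluster is ordered so that genes at its 3′ end are used more anteriorly in the embryo and genes at its 5′ end more posteriorly. Genes in the same position of different clusters form a paralogous group, numbered from the 3′ end. The combination of Hox genes in a cell is therefore read as a record of where along the body axis it arose, and Hox proteins usually bind DNA with Pbx and Meis cofactors. Mesenchyme and mesothelium of the gut tube and its organs carry such a code, and in mice the Hox6 group acts in pancreatic mesenchyme to support endocrine differentiation. The genes described here are all 39 protein-coding Hox genes among 32285 features, chosen by symbol (Hoxa to Hoxd followed by a number), which gave 11 genes of cluster A, 10 of B, 9 of C and 9 of D.

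Whole pancreata of mouse embryos at day 14.5 were dissociated, and RNA of single cells was counted with the 10x droplet assay, which tags molecules near their 3′ end with unique molecular identifiers (UMIs). The Null library pooled 3 pancreata from 3 litters with genotype Fgf9 -/-, in which a LacZ cassette disrupts the gene for this secreted fibroblast growth factor in every cell of the animal. The Control library pooled 8 littermate pancreata from 3 litters with genotypes Fgf9 +/+ and +/-, so some of its animals also carried the LacZ allele. All mice were on a C57BL/6J background, and each library came from 1 pool of live cells, sorted by size and for lack of the dead-cell stain DAPI. With 1 library per genotype no spread between animals could be had and no test was made: every interval given is an exact 95% interval for counting error alone, and PCR or embryo differences are not in it.

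After filtering, 8884 Null barcodes with a median of 24259 UMIs and 26959 Control barcodes with a median of 5728 UMIs were kept, and 73 barcode sequences occurred in both. Fgf9 stood at 1.70 counts per 1000000 UMIs (CPM) in Null and 9.25 CPM in Control barcodes, and at 36.7 CPM in Null and 123 CPM in Control mesothelial cells. Where the cassette lies relative to the counted 3′ end was not given, so these levels do not by themselves check the genotype. Xist had 70 UMIs in the Null and 119978 UMIs in the Control library, so genotype and the sex of the pooled embryos cannot be told apart. Acinar enzyme RNA found outside acinar cells put free RNA at 5.50% to 7.14% of the UMIs of the 4 classes below in the Null library and at 19.8% to 34.1% in the Control library.

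Barcodes were clustered without any Hox gene, and clusters were named from marker genes as mesenchymal-like (761 Null and 2317 Control cells), mesothelial-like (501 and 1062 cells), endothelial-like (161 and 266 cells) and neural-like (91 and 95 cells). The classes are called by these names without the suffix from here on. Of the 39 genes, 34 had at least 1 UMI in the kept barcodes, and Hoxa13, Hoxb13, Hoxc11, Hoxc12 and Hoxd12 had none in either library. UMIs count tagged molecules and were not divided by gene length. Levels are CPM over the class total.

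The 4 classes held different sets of Hox genes, all far above the level in epithelial cells. Summed over the 39 genes, the level was 352 CPM in Null and 386 CPM in Control mesenchymal cells, 418 CPM in Null and 409 CPM in Control mesothelial cells, 196 CPM in Null and 165 CPM in Control endothelial cells, and 154 CPM in Null and 173 CPM in Control neural cells. In epithelial cells, most of which derive from foregut endoderm, the sum was 1.97 CPM in Null and 6.37 CPM in Control. After each cell was thinned to 2000 UMIs, any Hox UMI was found in 50.4% of Null and 50.8% of Control mesenchymal cells, against 0.392% of Null and 1.30% of Control epithelial cells. The epithelial share, which free RNA alone may give, was far below that of mesenchymal cells in both libraries, although epithelial cells were deeper, with medians of 32226 UMIs in Null and 20807 UMIs in Control. Before thinning, the shares were 95.8% of Null and 92.3% of Control mesenchymal cells and 4.95% of Null and 9.63% of Control epithelial cells. Of the 17 Hox genes with at least 20 UMIs in epithelial cells, 0 were at least 2-fold higher in Null (beside 1.94% of all 18976 genes) and 14 were at least 2-fold lower (82.4%, beside 2.46% of all genes). The part of the higher free RNA of the Control library in these 14 was not tested.

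**Figure D1:**
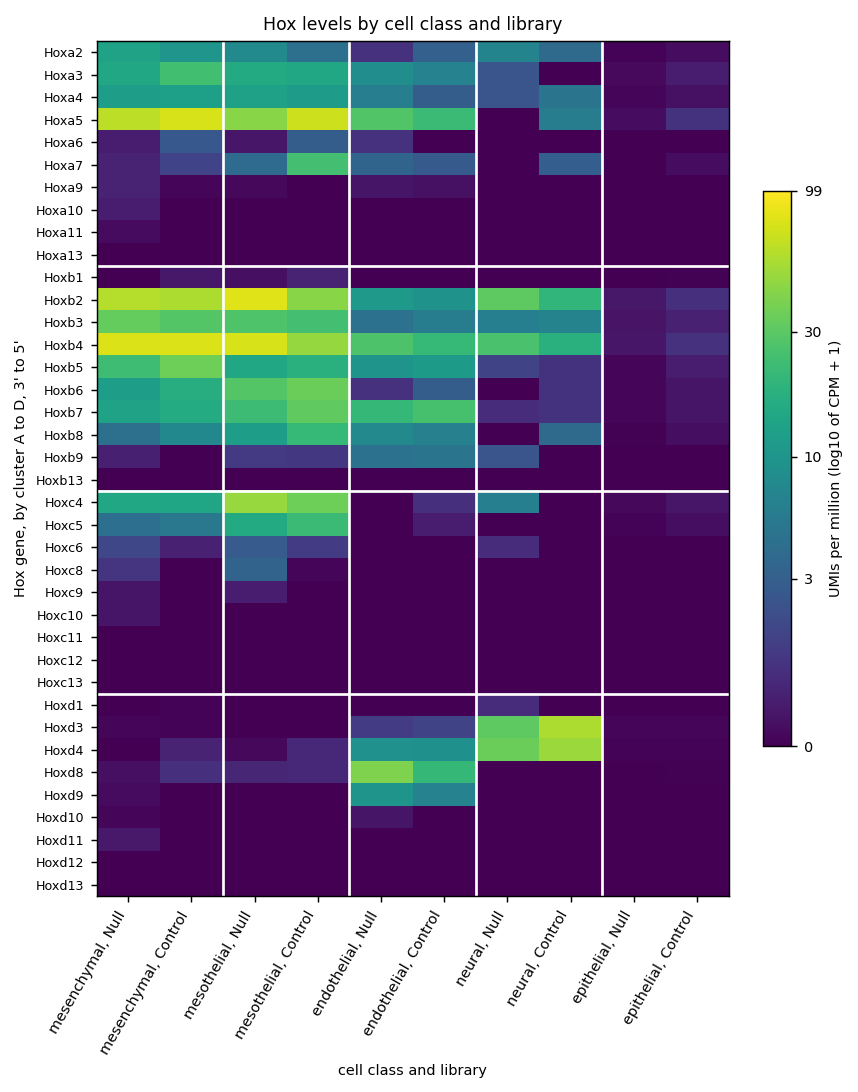
Level of the reported Hox genes (rows, by cluster A to D and from the 3′ to the 5′ end) in 5 cell classes, with the Null column left of the Control column in each class; colour is CPM on a log10 scale of CPM + 1. Hoxb4, Hoxa5 and Hoxb2 are bright in mesenchymal and mesothelial cells, Hoxd8 in endothelial cells and Hoxd3 and Hoxd4 in neural cells, while epithelial columns are dark.

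Mesenchymal cells of both genotypes were dominated by 3′ and central genes of clusters A and B, and the most abundant of these differed little between the libraries. Hoxb4, best known from blood stem cells, stood at 78.0 CPM in Null and 77.3 CPM in Control (log2 ratio of Null over Control 0.01, interval -0.10 to 0.12). Hoxa5, which in mice is needed in the mesenchyme of the lung and other foregut organs, stood at 62.6 CPM in Null and 75.2 CPM in Control (-0.26, interval -0.38 to -0.14). Hoxb2, a hindbrain patterning gene in other tissues, stood at 58.5 CPM in Null and 55.8 CPM in Control, and Hoxb3 at 32.5 CPM in Null and 28.0 CPM in Control. The Null and Control intervals overlapped for Hoxb4, Hoxb2 and Hoxb3 and lay apart for Hoxa5, which was slightly lower in Null. Free RNA, put at 6.30% of Null and 23.7% of Control mesenchymal UMIs, was not subtracted from these levels.

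Several mid-level genes were lower in Null mesenchyme by less than 2-fold, while the intervals of others overlapped. Hoxb5 stood at 22.9 CPM in Null and 35.3 CPM in Control (log2 ratio -0.62, interval -0.82 to -0.44). Hoxa3, a pharyngeal and thymus patterning gene, stood at 14.4 CPM in Null and 23.7 CPM in Control (-0.72, interval -0.96 to -0.48). Hoxb8 stood at 4.51 CPM in Null and 7.54 CPM in Control (-0.74, interval -1.18 to -0.32). Within the Hox6 group, Hoxb6 was by far the most abundant, with 12.3 CPM in Null and 16.7 CPM in Control (-0.44, interval -0.71 to -0.18). The intervals lay apart for Hoxb5, Hoxa3 and Hoxb8, with Null the lower in each. The CPM intervals of Hoxb6 did not overlap either.

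Of the 39 genes, 18 had at least 20 UMIs over both libraries in mesenchymal cells. Among these, 1 was at least 2-fold higher in Null, a share of 5.56% beside 4.19% of all 14770 genes measured the same way, and 3 were at least 2-fold lower, 16.7% beside 6.43% of all genes. The median log2 ratio was -0.27 for the 18 Hox genes and 0.01 for all genes. All 4 of these genes had low counts and are named here after their values were seen. Each reached 20 UMIs only in the library where it was higher, so these shares give no support for a direction. Hoxa6 had 6 UMIs in Null and 59 UMIs in Control (-2.53, interval -4.04 to -1.33), Hoxa7 had 8 in Null and 36 in Control (-1.41, interval -2.72 to -0.28), and Hoxd8 had 3 in Null and 21 in Control (-2.04, interval -4.43 to -0.30). Hoxc6 had 23 UMIs in Null and 12 UMIs in Control (1.70, interval 0.64 to 2.84). Among the 3 Hox6 genes, Hoxa6 and Hoxb6 were lower in Null and Hoxc6 was higher. Since Hoxa6 and Hoxc6 each passed the count minimum through 1 library, whether the group moved together was not tested.

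Genes of groups 9 to 13, the posterior end of the code, were rare in mesenchymal cells of both libraries. They gave 39 UMIs in 13 Null cells and 2 UMIs in 1 Control cell, which is 0.806% of Null and 0.0222% of Control mesenchymal Hox UMIs. In Null, 5 of these 13 cells held UMIs of at least 2 such genes, and up to 8 of the UMIs came from 1 cell. Hoxc8 had 14 UMIs in 6 Null cells and none in Control cells, a log2 ratio of at least 2.99 against a floor of 3 counts. The 8 Null cells with Hoxc8, Hoxc9 or Hoxc10 were led, relative to the other 753 Null mesenchymal cells, by Angptl7 (232 CPM against 1.76 CPM), Zcchc12 (167 CPM against 1.69 CPM) and Cntn4 (153 CPM against 11.2 CPM). The group was chosen for its Hox UMIs, so these values describe 8 cells only.

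Markers of other cell types differed between the libraries in the same mesenchymal class. Epithelial markers summed to 105 CPM in Null and 316 CPM in Control with all 8 of 8 at least 2-fold lower in Null, and mural markers to 1094 CPM in Null and 725 CPM in Control with none of either list at 0. Of the 6 mesothelial markers with at least 20 UMIs, 4 were at least 2-fold lower in Null, beside 6.43% of all genes. The mesothelial list summed to 20.3 CPM in Null and 23.1 CPM in Control. All 7 immune markers were at least 2-fold lower in Null, with sums of 6.69 CPM in Null and 38.4 CPM in Control. The 10 mesenchymal markers themselves summed to 9996 CPM in Null and 6333 CPM in Control. The part of all these markers in the Hox differences was not tested. Subtracting free RNA moved the summed log2 ratio of mesenchymal cells from -0.13 to -0.38, and thinning every cell to 2000 UMIs moved it to 0.00, so the size of the small summed difference rested on the processing.

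**Figure D2:**
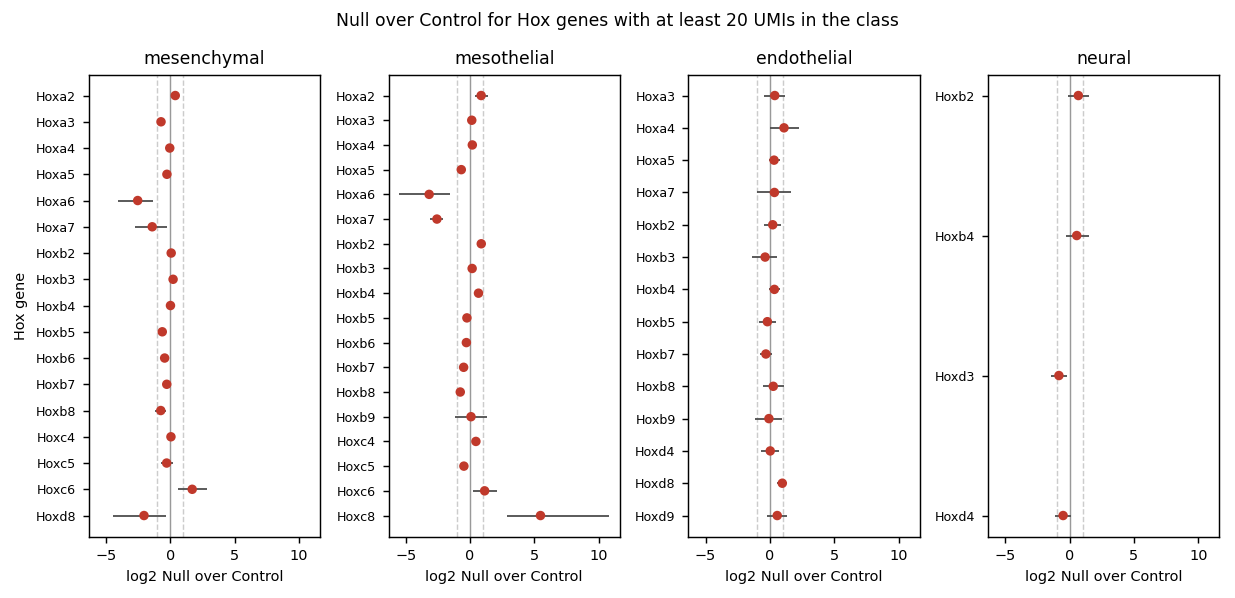
Log2 ratio of Null over Control CPM for each reported Hox gene with at least 20 UMIs over both libraries, in 4 cell classes; points are ratios, lines exact 95% counting intervals, dashed lines a 2-fold difference. Most points lie within 2-fold, and in mesenchymal and mesothelial cells Hoxa6 and Hoxa7 lie to the left and Hoxc6 to the right of the dashed lines.

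Mesenchymal cells were also divided by the organ-territory genes Tlx1 and Nkx2-5, which mark spleen primordium, and Barx1, which marks stomach mesenchyme. Cells with Tlx1 or Nkx2-5 numbered 15 in Null and 566 in Control, which was too few in Null to compare. Cells with Barx1 but neither gene numbered 128 in Null and 840 in Control, with summed Hox levels of 328 CPM in Null and 387 CPM in Control (log2 ratio -0.24, interval -0.35 to -0.13). Cells with none of the 3 numbered 618 in Null and 911 in Control, with 355 CPM in Null and 391 CPM in Control (-0.14, interval -0.21 to -0.07). In the Barx1 cells Hoxa5 stood at 37.1 CPM in Null and 70.3 CPM in Control (-0.92, interval -1.24 to -0.62), and Hoxb8 at 2.91 CPM in Null and 11.5 CPM in Control (-1.99, interval -3.24 to -0.95). The Null Hoxb8 level there rested on 8 UMIs. In the cells with none, Hoxa5 stood at 68.3 CPM in Null and 84.7 CPM in Control (-0.31, interval -0.46 to -0.16). Hoxb8 stood at 4.96 CPM in Null and 5.70 CPM in Control (-0.20, interval -0.79 to 0.39). The Hoxa5 and Hoxb8 differences were thus larger in Barx1 cells than in cells with none, a contrast that was not tested. Hoxb5 and Hoxa3 showed little such contrast, with ratios of -0.54 and -0.75 in Barx1 cells and -0.50 and -0.70 in cells with none.

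Hoxa5 and Hoxb8 also differed between the subsets of 1 library. In Null, Hoxa5 was lower in Barx1 cells than in cells with none (log2 ratio -0.88, interval -1.19 to -0.58), while in Control the same ratio was -0.27 (interval -0.43 to -0.11). Hoxb8 was higher in Control Barx1 cells than in Control cells with none (1.02, interval 0.51 to 1.54), whereas the Null ratio was -0.77 with an interval of -2.05 to 0.31. Hoxb4 and Hoxb2 were alike across these subsets, between 54.2 and 82.2 CPM in both libraries.

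Mesothelial cells, which line the organ surface and held most Fgf9 UMIs of both libraries, differed between the libraries in the make-up of the code: central genes of groups 6 to 8 took a smaller part of it in Null and genes of groups 1 to 3 a larger part. Groups 6 to 8 made up 17.7% of mesothelial Hox UMIs in Null (interval 16.5% to 18.9%) and 28.3% in Control (27.1% to 29.5%). Groups 1 to 3 made up 31.9% in Null (30.4% to 33.4%) and 21.7% in Control (20.7% to 22.8%). Groups 4 and 5 gave 1968 of 3934 UMIs in Null and 2740 of 5517 UMIs in Control, with overlapping intervals of the share. The mesothelial sum differed little, with a log2 ratio of 0.03 (interval -0.03 to 0.09).

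Hoxa7, a central gene of cluster A used in trunk patterning, was far lower in Null mesothelium. It had 38 UMIs in 25 of 501 Null cells and 325 UMIs in 201 of 1062 Control cells, or 4.04 CPM in Null and 24.1 CPM in Control (log2 ratio -2.58, interval -3.10 to -2.09). Its neighbour Hoxa6 had 3 UMIs in Null and 39 UMIs in Control (-3.18, interval -5.52 to -1.53). Hoxa5, the next gene beyond Hoxa6, stood at 42.9 CPM in Null and 69.0 CPM in Control (-0.69, interval -0.86 to -0.52). These 3 genes were lower in Null, whereas Hoxa2, Hoxa3 and Hoxa4 had log2 ratios of 0.86, 0.13 and 0.17. The Control level of Hoxa3, 14.5 CPM, lay within its Null interval of 13.4 to 18.6 CPM. That of Hoxa4, 11.5 CPM, lay within its Null interval of 10.8 to 15.5 CPM. Neither gene therefore gives a direction. After thinning to 2000 UMIs, Hoxa7 was found in 4 of 498 Null cells and 33 of 1056 Control cells, a log2 ratio of -1.69. For Hoxa7 and Hoxa6, the pair at least 2-fold lower in Null, the 250 bases before the gene start given by RefSeq (build GRCm38.p6) are printed 5′ to 3′ on the gene's strand. The GENCODE gene model of Hoxa7 (chr6:52214491-52221854) is longer and holds the printed window. That of Hoxa6 (chr6:52206288-52208722) overlaps the last bases of its window. Capitals mark matches, on either strand, to the Hox-Pbx motif TGATNNAT, the Meis motif TGACAG or the Cdx motif TTTATNA, and no printed matches overlap. The Hoxa7 window (chr6:52218574-52218823, minus strand) held 2 Cdx-motif matches and the Hoxa6 window (chr6:52208673-52208922, minus strand) held none of the 3 motifs.
Hoxa7: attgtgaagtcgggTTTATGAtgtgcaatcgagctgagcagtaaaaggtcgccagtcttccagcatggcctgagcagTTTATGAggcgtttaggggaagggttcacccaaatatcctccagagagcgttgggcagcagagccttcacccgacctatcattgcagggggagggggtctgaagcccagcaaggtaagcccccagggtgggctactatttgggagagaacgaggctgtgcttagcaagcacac
Hoxa6: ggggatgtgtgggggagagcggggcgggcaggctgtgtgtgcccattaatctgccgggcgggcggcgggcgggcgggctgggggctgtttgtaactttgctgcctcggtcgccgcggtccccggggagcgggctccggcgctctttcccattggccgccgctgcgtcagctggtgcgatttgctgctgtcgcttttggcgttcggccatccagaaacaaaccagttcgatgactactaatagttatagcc
Among all 32851 RefSeq windows of this length, 12.8% held the Cdx motif, 7.68% the Hox-Pbx motif and 15.9% the Meis motif. Of the 24 windows found for 22 Hox genes, 6 held the Cdx motif, 4 the Hox-Pbx motif and 2 the Meis motif. A match describes letters only, and Cdx1, Cdx2 and Cdx4 had between 0 and 0.106 CPM summed in mesothelial cells of either library.

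Several other genes differed in mesothelium by less than 2-fold, Hoxb7 and Hoxb8 being lower and Hoxb2, Hoxb4 and Hoxc4 higher in Null. Hoxb8 stood at 12.3 CPM in Null and 20.9 CPM in Control (log2 ratio -0.76, interval -1.09 to -0.45), and Hoxb7 at 22.3 CPM in Null and 31.6 CPM in Control (-0.50, interval -0.75 to -0.26). Hoxb2 stood at 79.4 CPM in Null and 43.5 CPM in Control (0.87, interval 0.71 to 1.03), and Hoxb4 at 74.7 CPM in Null and 47.5 CPM in Control (0.65, interval 0.50 to 0.81). Hoxc4 stood at 47.7 CPM in Null and 34.9 CPM in Control (0.45, interval 0.26 to 0.64). Its neighbour Hoxc5 was lower in Null, at 15.8 CPM in Null and 22.1 CPM in Control (-0.48, interval -0.78 to -0.19). Exons of Hoxc5 and Hoxc10 overlap on the same strand in the annotation, so their reads may be shared. CPM intervals of the libraries lay apart for each of these 6 genes. They overlapped for Hoxb6, with 28.2 CPM in Null and 34.4 CPM in Control, and for Hoxb3, with 27.1 CPM in Null and 24.3 CPM in Control.

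Of the 19 Hox genes with at least 20 UMIs in mesothelial cells, 2 were at least 2-fold higher in Null, which is 10.5% beside 5.75% of all 14024 genes. The same number, Hoxa6 and Hoxa7, were at least 2-fold lower, which is 10.5% beside 5.72% of all genes. Hoxa6 passed the count minimum through the Control library alone. The median log2 ratio was 0.13 for the 19 Hox genes and -0.03 for all genes. The higher pair, named after their values were seen, were Hoxc6 with 26 UMIs in Null and 17 in Control (1.13, interval 0.19 to 2.10) and Hoxc8 with 31 UMIs in Null and 1 in Control (5.47, interval 2.89 to 10.8). Hoxc6 and Hoxc8 each passed the count minimum through the Null library alone. Hoxc8, which in mice patterns thoracic vertebrae and brachial motor neurons, lay in 10 of 501 Null cells, with up to 6 UMIs in 1 cell. None of those 10 cells held a Barx1 UMI.

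Mesothelial cells of the libraries also differed in Barx1 and in mesenchymal markers. Barx1 was found in 159 of 501 Null cells (31.7%, interval 27.7% to 36.0%) and in 998 of 1062 Control cells (94.0%, interval 92.4% to 95.3%), at median depths of 18648 UMIs in Null and 12368.5 UMIs in Control. The 10 mesenchymal markers summed to 9336 CPM in Null and 3210 CPM in Control, with 9 of 10 at least 2-fold higher in Null and none at 0, and the 8 mesothelial markers to 1080 CPM in Null and 912 CPM in Control. The part of the mesenchymal markers in the Hox differences was not tested.

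Within the mesothelial cells that held Barx1, a division chosen after the data were seen, Hoxa7, Hoxb8, Hoxb6 and Hoxb7 had lower ratios than in the class as a whole, a contrast that was not tested. Hoxa7 stood at 2.21 CPM in Null and 24.8 CPM in Control (log2 ratio -3.48, interval -4.81 to -2.43). Hoxb8 stood at 5.38 CPM in Null and 20.8 CPM in Control (-1.95, interval -2.75 to -1.25), Hoxb6 at 14.9 CPM in Null and 34.6 CPM in Control (-1.22, interval -1.68 to -0.78), and Hoxb7 at 15.2 CPM in Null and 32.5 CPM in Control (-1.10, interval -1.56 to -0.66). Hoxa3, Hoxa4, Hoxb2, Hoxb3, Hoxb4 and Hoxc4 were higher in these Null cells, with log2 ratios between 0.43 and 0.82. The Null intervals lay below the Control intervals for Hoxa7, Hoxb8, Hoxb6 and Hoxb7. Hoxc6 and Hoxc8, higher in Null in the whole class, had 1 and 0 Null UMIs in cells with Barx1. Thinning to 2000 UMIs moved Hoxb8 from -1.95 to -1.11 and Hoxa7 from -3.48 to -2.46.

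Cells without Barx1 gave another picture, with few Control cells behind it (342 in Null and 64 in Control). Hoxb6 had 218 UMIs in Null and 15 UMIs in Control (log2 ratio 0.17, interval -0.58 to 1.03). Hoxb8 stood at 15.8 CPM in Null and 24.8 CPM in Control, with a ratio interval that held 0, like that of Hoxb6. Hoxb7 went the other way than in cells with Barx1, with 162 UMIs in Null and 4 UMIs in Control, or 25.9 CPM in Null and 8.26 CPM in Control (1.65, interval 0.27 to 3.54). The summed Hox level was also higher in Null in these cells (0.62, interval 0.38 to 0.88). Hoxa7 was low in both, at 4.96 CPM in Null and 6.20 CPM in Control. In Control, Hoxa7 stood at 24.8 CPM in cells with Barx1 (322 UMIs) and at 6.20 CPM in cells without it (3 UMIs). The log2 ratio was 2.00 (interval 0.44 to 4.29). The Control cells without Barx1 were shallower, with a median of 6874 UMIs against 12667 UMIs. The part of depth in their lack of Barx1 UMIs was not tested. In Null, Hoxa7 stood at 2.21 CPM in cells with Barx1 and 4.96 CPM in cells without it (-1.16, interval -2.59 to 0.05), which gives no direction. Hoxa5 was higher in cells with Barx1 in both libraries, at 55.4 CPM against 36.6 CPM without it in Null and at 71.1 CPM against 14.5 CPM in Control.

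**Figure D3:**
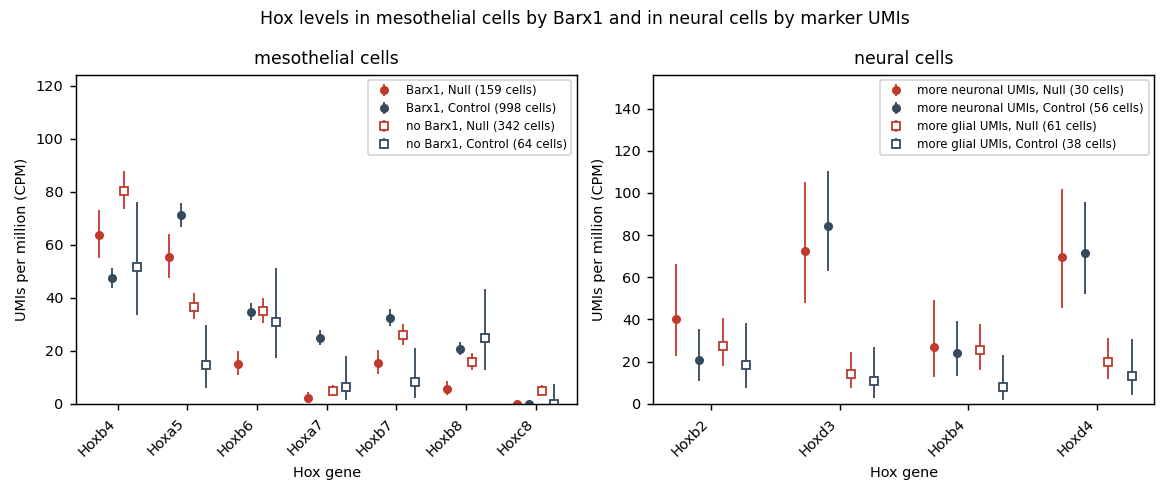
Level in CPM of 7 Hox genes in mesothelial cells with and without Barx1 (left) and of 4 Hox genes in neural cells with more neuronal or more glial marker UMIs (right); points are levels of 1 library and lines exact 95% counting intervals. Hoxa7 is high in Control cells with Barx1 at 24.8 CPM and at 2.21 CPM in the Null ones, and Hoxd3 and Hoxd4 are higher in neuronal than in glial cells of both libraries.

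Mesothelial and mesenchymal cells of the same library shared most genes but differed in the central and cluster C genes, in the same direction in both libraries. Hoxa7 was 6.94-fold higher in mesothelial than in mesenchymal cells in Null and 15.6-fold higher in Control. Hoxc5 was 3.63-fold higher in Null and 4.16-fold in Control, Hoxc4 3.28-fold in Null and 2.48-fold in Control, Hoxb8 2.73-fold in Null and 2.77-fold in Control, and Hoxb6 2.29-fold in Null and 2.07-fold in Control. Hoxb4 stood at 0.958 of its mesenchymal level in Null and at 0.615 in Control. Groups 6 to 8 took 17.7% of mesothelial and 9.65% of mesenchymal Hox UMIs in Null, and 28.3% of mesothelial and 11.9% of mesenchymal Hox UMIs in Control. Groups 9 to 13, at the 5′ end, did not follow this order in Null, with 0.407% of mesothelial and 0.806% of mesenchymal Hox UMIs, while in Control they took 0.272% of mesothelial and 0.0222% of mesenchymal Hox UMIs.

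Endothelial cells differed from mesenchymal cells in both libraries by cluster D genes, which were scarce in mesenchyme. Hoxd8 had 129 UMIs in Null and 92 UMIs in Control, or 39.7 CPM in Null and 20.4 CPM in Control. It was found in 73 of 161 Null cells and 71 of 266 Control cells. In mesenchymal cells it stood at 0.218 CPM in Null and 0.900 CPM in Control, so that the endothelial level was higher on the log2 scale by 7.51 in Null (interval 5.93 to 9.80) and by 4.50 in Control, which is 22.6-fold. Hoxd9, a lumbar and limb patterning gene, stood at 9.86 CPM in Null and 6.64 CPM in Control, and Hoxd4 at 9.24 CPM in Null and 9.08 CPM in Control, with overlapping intervals for each. Hoxb9, which acts in rib patterning, had 15 UMIs in Null and 22 in Control, against 7 in Null mesenchymal cells and none in Control mesenchymal cells. The Hoxd8 window is printed because Hoxd8 set these cells apart (RefSeq, GRCm38.p6, chr2:74704365-74704614, plus strand, 250 bases before the gene start), and it held none of the 3 motifs.
Hoxd8: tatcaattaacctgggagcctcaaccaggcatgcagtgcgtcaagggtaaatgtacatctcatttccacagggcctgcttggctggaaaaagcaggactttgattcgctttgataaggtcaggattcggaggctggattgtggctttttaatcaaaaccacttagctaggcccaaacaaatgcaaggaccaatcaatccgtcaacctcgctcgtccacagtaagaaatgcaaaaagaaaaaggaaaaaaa

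Cluster D made up 30.8% of endothelial Hox UMIs in Null (interval 27.2% to 34.6%) and 22.8% in Control (19.9% to 26.0%). Groups 6 to 8 made up 37.3% in Null and 34.9% in Control, and groups 9 to 13 7.70% in Null and 7.12% in Control, with overlapping intervals for both. Cluster C was absent from Null endothelial cells, with 0 of 636 Hox UMIs, for which 3 counts would be 0.472% and the exact interval reaches 0.578%, and gave 6 of 744 UMIs in Control. Hoxa5 and Hoxb4, the leading mesenchymal genes, stood at 27.7 and 26.5 CPM in Null and at 22.1 and 20.8 CPM in Control endothelial cells. Relative to mesenchymal cells of the same library, Hoxa5 stood at 0.443 of its level in Null and 0.294 in Control, while Hoxc4 stood at no more than 0.0635 in Null and at 0.0630 in Control. Hoxb7 stood above its mesenchymal level, with 20.3 CPM in Null and 25.2 CPM in Control endothelial cells, which is 1.54-fold in Null and 1.57-fold in Control.

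**Figure D4:**
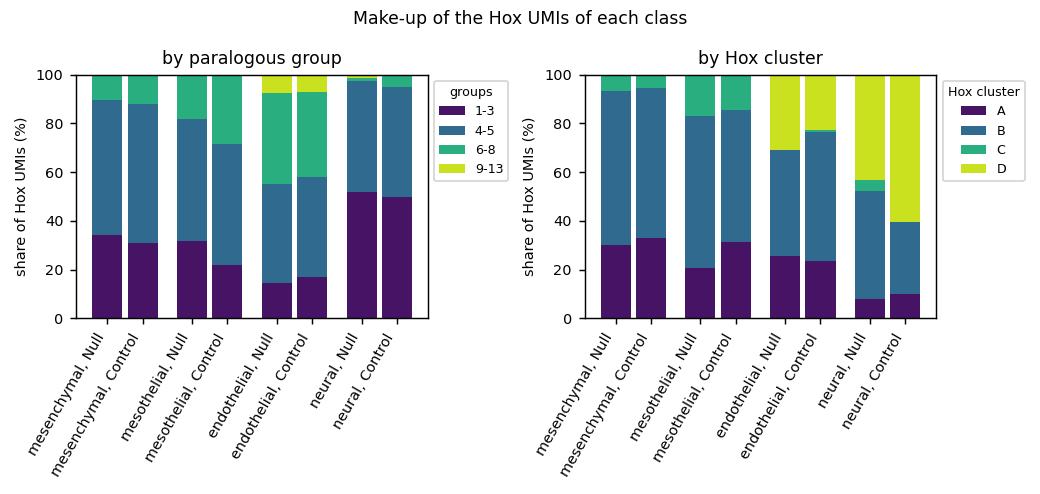
Share of the Hox UMIs of each class and library by paralogous groups (left) and by Hox cluster A to D (right), with the Null bar left of the Control bar. Mesothelial bars show groups 6 to 8 at 17.7% in Null and 28.3% in Control, and cluster D fills 30.8% of the Null and 22.8% of the Control endothelial bar and 43.1% of the Null and 60.5% of the Control neural bar.

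Between the libraries, Hoxd8 was higher in Null endothelial cells (log2 ratio 0.96, interval 0.57 to 1.37), with CPM intervals that lay apart. Its share of cells after thinning was 12.2% in Null and 3.46% in Control. The ratio was 0.48 with free RNA subtracted and 1.88 after thinning, so its size rested on the processing although its direction did not. Of the 14 Hox genes with at least 20 UMIs, 1 was at least 2-fold higher in Null (7.14%, beside 2.54% of all 11325 genes) and 0 were at least 2-fold lower (beside 6.8% of all genes). That gene, named after its value was seen, was Hoxa4 with 20 UMIs in Null and 13 in Control (1.10, interval 0.02 to 2.23). Hoxa4 passed the count minimum through the Null library alone. The median log2 ratio was 0.29 for these 14 genes and 0.04 for all genes. The summed level was higher in Null (0.25, interval 0.10 to 0.40), but subtracting free RNA turned it to -0.06.

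Mesenchymal RNA differed between the endothelial cells of the libraries in the opposite direction to the Hox sum. The 10 mesenchymal markers summed to 35.7 CPM in Null, with 1 at 0, and 291 CPM in Control with none at 0, and the 9 endothelial markers to 4437 CPM in Null and 3011 CPM in Control. Meis1, which encodes a Hox cofactor, had 13 UMIs in Null and 133 UMIs in Control endothelial cells (log2 ratio -2.88, interval -3.82 to -2.06). The part of mesenchymal RNA in these values was not tested.

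Neural cells, which hold neural crest-derived glia and autonomic neurons, had the most anterior code, with nearly all UMIs in groups 1 to 5. Groups 1 to 3 made up 51.8% of Hox UMIs in Null and 49.7% in Control, and groups 4 and 5 45.7% in Null and 45.2% in Control. Hoxd3, which in mice patterns the first neck vertebrae, had 40 UMIs in Null and 57 UMIs in Control, or 31.2 CPM in Null and 55.7 CPM in Control (log2 ratio -0.84, interval -1.46 to -0.23). Hoxd4 stood at 34.3 CPM in Null and 48.9 CPM in Control (-0.51, interval -1.13 to 0.10). In mesenchymal cells Hoxd3 had 1 UMI in each library and Hoxd4 had 0 in Null and 13 in Control. Exons of Hoxd3 and Hoxd4 overlap on the same strand, so reads of one may be counted for the other, and their separate levels are uncertain. The Hoxd3 window (RefSeq, GRCm38.p6, chr2:74711743-74711992, plus strand, 250 bases before the gene start), printed because Hoxd3 marks the neural class, held 1 Cdx-motif match, shown in capitals. The GENCODE gene models of Hoxd3 and Hoxd4 start at 74711927 and 74711929, so the last bases of the window lie inside both.
Hoxd3: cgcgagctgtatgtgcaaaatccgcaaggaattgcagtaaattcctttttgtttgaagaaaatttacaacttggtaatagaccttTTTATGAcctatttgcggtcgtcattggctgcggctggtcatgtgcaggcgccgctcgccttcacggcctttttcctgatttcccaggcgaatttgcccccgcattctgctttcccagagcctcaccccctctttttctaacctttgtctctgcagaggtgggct

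Hoxb2 and Hoxb4 completed the neural set, at 31.2 and 25.7 CPM in Null and at 19.5 and 17.6 CPM in Control, with overlapping intervals for each gene. Hoxa5, abundant in mesenchyme, had 0 UMIs in Null neural cells and 6 UMIs in 4 Control cells. Control neural cells also held the only Hoxa7 and Hoxb8 UMIs of the class, 3 and 4 of them. The 8 mural markers, shared with visceral smooth muscle, summed to 79.5 CPM in Null with 2 at 0 and to 674 CPM in Control with none at 0, led there by Acta2 at 380 CPM, and their part in these few UMIs was not tested. Only 4 Hox genes had at least 20 UMIs in neural cells. None was at least 2-fold higher or lower in Null (0 of 4, beside 6.28% and 4.14% of all 9405 genes), with a median log2 ratio of 0.02 for the 4 and 0.08 for all genes.

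Hoxd3 and Hoxd4 followed the neurons rather than the glia within the class. Cells were divided, after the data were seen, by whether neuronal or glial markers had more UMIs. Hoxd3 stood at 72.4 CPM in 30 neuronal and 14.3 CPM in 61 glial cells of the Null library (log2 ratio 2.34, interval 1.34 to 3.42). In the Control library it stood at 84.3 CPM in 56 neuronal and 10.6 CPM in 38 glial cells (2.99, interval 1.55 to 4.92). Hoxd4 gave 69.7 CPM in neuronal and 19.8 CPM in glial cells of Null (1.82, interval 0.89 to 2.77) and 71.6 CPM in neuronal and 13.2 CPM in glial cells of Control (2.44, interval 1.11 to 4.13). Hoxb2 and Hoxb4 showed no such separation in Null, with log2 ratios of 0.55 (interval -0.48 to 1.53) and 0.08 (interval -1.15 to 1.21). Neuronal cells were 33.0% of Null neural cells (interval 23.5% to 43.6%) and 58.9% of Control neural cells (interval 48.4% to 68.9%). The part of this share in the lower Hoxd3 of the whole Null class was not tested. These 4 subsets held between 30 and 61 cells. Within neuronal cells the Hoxd3 intervals of the libraries overlapped, at 47.7 to 105 CPM in Null and 63.1 to 110 CPM in Control.

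Most genes that help or regulate Hox proteins differed by less than 2-fold between the libraries, as did most of all genes measured. Exceptions were found among genes of retinoic acid, a signal that induces Hox genes. Of the 9 Pbx, Meis and Pknox cofactor genes, 9 passed the count minimum in mesenchymal cells, with none at least 2-fold higher (beside 4.19% of all genes) and 1 at least 2-fold lower in Null (beside 6.43%), and a median log2 ratio of -0.07. In mesothelial cells 8 passed and none differed 2-fold, beside 5.75% of all genes higher and 5.72% lower. Meis2 stood there at 367 CPM in Null and 546 CPM in Control (-0.57, interval -0.63 to -0.51). None of the 8 Polycomb and trithorax genes, which maintain Hox silencing and activity, differed 2-fold in mesenchymal, mesothelial or endothelial cells. Of all genes in these 3 classes, 2.54% to 5.75% were at least 2-fold higher and 5.72% to 6.8% lower. With shares this low, 0 of 8 does not set these genes apart. In neural cells 1 of 8 was at least 2-fold higher in Null, Eed with 56 UMIs in Null and 19 UMIs in Control (1.23, interval 0.46 to 2.07), and 1 of 8 cofactor genes was lower, Meis2 with 15 UMIs in Null and 42 UMIs in Control (-1.81, interval -2.77 to -0.93). Both are named after their values were seen, and over all neural genes 6.28% were higher and 4.14% lower. Aldh1a2, which makes retinoic acid, stood at 1.09 CPM in Null and 10.0 CPM in Control mesenchymal cells (-3.20, interval -4.06 to -2.45) and at 169 CPM in Null and 262 CPM in Control mesothelial cells (-0.64, interval -0.72 to -0.55). The mesenchymal values were 15 UMIs in Null and 234 UMIs in Control, far below the mesothelial level. Free RNA was put at 6.30% of Null and 23.7% of Control mesenchymal UMIs. The part of free or mesothelial RNA in the mesenchymal Aldh1a2 difference was not tested. Cyp26b1, which breaks retinoic acid down, stood at 0.655 CPM in Null and 5.70 CPM in Control mesenchymal cells (-3.12, interval -4.28 to -2.15). Its values were 9 UMIs in Null and 133 UMIs in Control. In mesenchymal cells, Aldh1a2 and Cyp26b1 each passed the count minimum through the Control library alone. Aldh1a1, another retinoic acid-making enzyme, was higher in Null, at 11.2 CPM in Null and 2.83 CPM in Control mesenchymal cells (1.99, interval 1.56 to 2.42) and at 15.7 CPM in Null and 3.27 CPM in Control mesothelial cells (2.27, interval 1.77 to 2.79). The receptor gene Rarg stood at 16.7 CPM in Null and 8.19 CPM in Control mesenchymal cells (1.03, interval 0.75 to 1.32). Of the 9 retinoic acid genes, 7 passed the count minimum in mesenchymal cells. Of these, 2 were at least 2-fold higher in Null (beside 4.19% of all genes) and 2 lower (beside 6.43%). Aldh1a3, Rara and Rarb had log2 ratios between -0.04 and 0.54 there. In mesothelial cells 6 passed, with 2 higher (beside 5.75%) and 0 lower (beside 5.72%).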

How the data were processed

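Single-cell RNA was counted in 1 Null and 1 Control library of embryonic day 14.5 mouse pancreas. The deposited values are raw UMI counts per gene and barcode, whole numbers that the authors did not normalize. The submitters' processing notes name Cell Ranger 6.1.1, bcl2fastq and Seurat 3.2.3, and the build mm10. No source used here says whether strand entered the counting, and 12 of the 39 Hox genes overlap exons of another gene, 4 of them on the same strand. No deposited cell annotation was used here.

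Barcodes with at least 1000 UMIs, at least 300 genes and under 15% mitochondrially encoded UMIs were kept (9404 Null and 27179 Control), of 271129120 UMIs in the Null and 339959625 UMIs in the Control file. Doublets were removed per library with Scrublet in scanpy 1.11.5. The automatic threshold marked 520 Null barcodes (5.53%) and 0% of Control barcodes, where a score of 0.25 marked 220 (0.809%), so more doublets may remain in Control. Both libraries were clustered together (counts scaled to 10000, log-transformed, 2000 variable genes without Hox genes, 30 principal components, 15 neighbours, Leiden resolution 1). A cluster took the class whose markers stood highest, with at least 3 markers more than 1 on the log2 scale above the 25th percentile of clusters in at least 10% of its cells, thresholds set after the data were seen. Clusters of low UMI counts (405 and 737 Null barcodes, 11134 and 1455 Control barcodes) and clusters mostly of barcodes marked by a second doublet call (20 in each of 2 in Null, 389 and 253 in Control) stayed unnamed.

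UMIs were summed per class and library and divided by the UMIs of the class, leaving out haemoglobin and mitochondrial transcripts, to give CPM. Ratios carry exact conditional intervals for a pair of Poisson counts, levels exact Poisson intervals and shares exact Clopper-Pearson intervals, all at 95% and for counting error only. Folds against a library with no UMI were taken against 3 counts and are bounds. Ratios were counted for genes with at least 20 UMIs over both libraries, and 2-fold means a log2 ratio of at least 1 or at most -1. Values are printed for genes with at least 50 UMIs over both libraries and 5 CPM in either library, though not for every such gene. They are also printed for up to 8 cofactor or regulator genes per class with at least 100 UMIs, and for others only where stated. The ratio code was tested on simulated data. Since the Hox genes, the lists and the divisions were chosen with earlier results of these data known, no list carries independent support. The values of 1 of the 39 Hox genes are not reported here on their own, though sums and counts include it. Alternatives were deeper barcodes (at least 5000 UMIs), thinning to 2000 UMIs, equal cluster weights, a second doublet call, free RNA subtraction, no count minimum, 50 principal components and, chosen after the data were seen, a low-UMI cluster counted as mesenchymal.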

Additional observations from a re-analysis of the deposited data

Results flagged for a closer look

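Hoxd8 moved in opposite directions in mesenchymal and endothelial cells. Its log2 ratio of Null over Control was -2.04 in mesenchymal cells (3 UMIs in Null and 21 UMIs in Control) and 0.96 in endothelial cells (129 UMIs in Null and 92 UMIs in Control), with intervals on opposite sides of 0. In mesenchymal cells the 3 Null UMIs are no more than the floor of 3 counts, and Hoxd8 passed the count minimum through Control alone. The difference between the classes was not tested, since each class has 1 library per genotype.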

How the results depend on the processing

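No paired analysis was possible because each genotype is 1 pooled library. Deeper barcodes, the second doublet call and 50 principal components kept every summed level, count and median of the 4 classes within its interval or within 1.5 times. Values that moved are these. In mesenchymal cells the summed log2 ratio of -0.13 became 0.00 with thinned cells, -0.38 with free RNA subtracted and -0.0373 with the low-UMI cluster counted. The count of genes at least 2-fold higher became 0 with thinned cells or equal cluster weights and 8 without the count minimum, the count of lower genes 0 with thinned cells, and the median 0.0312 without the minimum. In mesothelial cells the summed ratio of 0.03 became -0.16 with free RNA subtracted, the higher count 1 with thinned cells or free RNA subtracted, and the lower count 4 without the minimum. In endothelial cells the summed ratio of 0.25 became -0.0596 and the higher count 0 with free RNA subtracted, and the lower count 2 without the minimum. In neural cells the lower count became 1 with free RNA subtracted, and without the minimum 1 gene was higher and 2 were lower. Null mesenchymal cells without Tlx1, Nkx2-5 or Barx1 summed to 383 CPM after thinning. The cause of these moves was not tested, except that thinning leaves fewer genes past the minimum (12 in mesenchymal and 13 in mesothelial cells). Equal cluster weights could be run in mesenchymal cells alone, and no neural gene was left to give a median after thinning. Of the single genes, 15 of 31 ratios left their interval after thinning and 11 of 41 with free RNA subtracted. The limits are 1 pool per genotype, free RNA of up to 34.1% in Control classes, 91 and 95 neural cells, and few UMIs for genes of groups 9 to 13.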

Other observations

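Antisense and opposite-strand genes of the Hox clusters were mostly higher in Null in mesothelial, endothelial and mesenchymal cells. In mesothelial cells all 5 of 5 with at least 20 UMIs had positive log2 ratios, with a median of 0.54 beside -0.03 for all genes. In endothelial cells 4 of 4 were positive (median 0.65, beside 0.04), and in mesenchymal cells 4 of 5 (0.23, beside 0.01). In neural cells 1 of 2 was positive and in epithelial cells 0 of 5. The share of all genes with a positive ratio was not counted. Hotairm1, a long noncoding RNA of Hox cluster A, was the most abundant of them, with 139 CPM in Null and 75.4 CPM in Control mesothelial cells (log2 ratio 0.88, interval 0.76 to 1.00). It stood at 66.1 CPM in Null and 56.2 CPM in Control mesenchymal cells (0.23, interval 0.11 to 0.36) and at 34.2 CPM in Null and 19.5 CPM in Control endothelial cells (0.81, interval 0.39 to 1.23). Hoxaas3, which overlaps exons of Hoxa3 and Hoxa7 on the opposite strand, stood at 14.5 CPM in Null and 11.2 CPM in Control mesothelial cells (0.37, interval 0.02 to 0.71), where Hoxa7 was lower in Null. If counting did not use strand, reads of such overlapping pairs cannot be told apart.

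Unnamed barcodes of low UMI counts also held Hox RNA. The cluster that matched mesenchymal markers but was led by other genes, with 737 Null and 1455 Control barcodes, had summed Hox levels of 271 CPM in Null and 169 CPM in Control. The low-UMI cluster that matched acinar markers, with 405 Null and 11134 Control barcodes, had 79.6 CPM in Null and 42.2 CPM in Control.

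The 10 Null mesothelial cells with Hoxc8, Hoxc9 or Hoxc10 were led by Cxcl14, with 221 CPM against 9.03 CPM in the other 491 Null mesothelial cells, and by Hbegf, with 153 CPM against 18.2 CPM. These 10 cells were chosen for their Hox UMIs, and the values describe them only.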
